A study of Rattus norvegicus with 80 samples.

Results

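Of 32883 gene identifiers counted in rat mammary tissue, 32 were chosen as fibroblast-enriched. A member had a mean of at least 4 CPM (a gene's counts per 1000000 counts of its library) in wildtype fibroblasts. That mean, plus 0.1, was also at least 16 times the means plus 0.1 of both wildtype mammary epithelial cells (MECs) and wildtype adipocytes. The wildtype levels of these 3 cell types therefore chose the members and are given as a description only. Members are numbered from 1 to 32 by their mean CPM in wildtype fibroblasts, with 1 the highest.

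Fibroblasts are the stromal cells that make and remodel the collagen-rich matrix around mammary ducts and between fat cells. Genes enriched in them typically encode matrix proteins, the enzymes that process and crosslink these proteins, secreted signals and the transcription factors of mesenchymal cells. In a whole mammary pad or a tumor such genes can come from resident fibroblasts, from pericytes and vessel walls, or from other cells that switch them on. The count table gives Ensembl identifiers and does not pair them with gene symbols, so no member is named, no known role is given, and marker lists of fibroblasts and other cell types were not analysed here. Identifiers are printed for 4 members, chosen by their p-values in tumors against pads.

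The series has 80 RNA sequencing libraries in 19 groups of wildtype and of 3 Nf1-mutant rat lines. Nf1 encodes neurofibromin, which holds Ras signaling in check. The mutated lines are labelled IF, PS or IFPS, names whose alleles, like age, strain background and treatment, are not given in the sources used here. Fibroblasts, MECs and adipocytes had 3 libraries each from wildtype and from every mutated line. Whole mammary pads had 6 wildtype, 3 IF, 6 PS and 6 IFPS libraries, and tumors had 5 IF, 9 PS and 9 IFPS libraries, with no wildtype tumor. Per the labels' protocols, fibroblasts and MECs were cultured cells taken near confluency, while pads, tumors and mature adipocytes were extracted directly. Culture and cell type cannot be told apart where fibroblasts are set against adipocytes, pads or tumors. The series describes the normal cells as flow sorted. The titles of 2 IFPS tumors share a start, and whether these came from 1 animal is not said. No label says whether replicates came from separate animals, so the p-values measure the spread between these samples, which may be technical.

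Total counts ranged from 17344717 to 37293141 per library. PS fibroblasts had 34578130 to 37293141 and IF fibroblasts 26105453 to 29240102. As a stand-in for cell type markers, the same rule was mirrored on these data: 308 genes were enriched in wildtype MECs, 295 in wildtype adipocytes, and 218 were expressed in wildtype pads but low in the 3 isolated cell types. Several libraries stood apart in these sets. The summed level of the epithelial-enriched genes was 3703, 6066 and 644 CPM in IFPS tumors 6, 8 and 9 and at least 31215 CPM in the other IFPS tumors. IFPS tumor 6 also had 95266 CPM of adipocyte-enriched genes. IF tumor 2 had 219608 CPM of the pad genes, against 45996 to 84427 CPM in the other IF tumors. The mean log2 level over the same genes was 2.27 there and 1.95 to 2.23 in the others. Its sum thus stood apart more than the set as a whole. Among adipocytes, IF libraries 1 and 3 had 6001 and 5669 CPM of epithelial-enriched genes, IF library 2 had 769, and PS and IFPS libraries had 140.2 to 173. IFPS tumors against pads are also given without IFPS tumors 6, 8 and 9, and IF adipocytes with library 2 alone. Counts of calls for IF tumors against pads without IF tumor 2 are not given. Neither are counts among tumors or of the tumor effect without those IFPS tumors.

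In wildtype fibroblasts the members spanned almost 3 orders of magnitude. Their mean levels ran from 4.53 CPM (member 32) to 3164 CPM (member 1), with a median of 40.5 CPM. Member 1 alone held 41.8% of the members' summed CPM, and the 5 highest held 79.7%. There were 5 members over 500 CPM, 4 between 100 and 500, 16 between 10 and 100 and 7 from 4 to 10. Their sum was 7578 ± 466 CPM (SD, n = 3) in wildtype fibroblasts, 238 ± 72.4 in wildtype MECs and 240.1 ± 114 in wildtype adipocytes.

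Member 1 measured 2483, 3949 and 3059.6 CPM in the 3 wildtype fibroblast libraries, 75.7, 52.6 and 151 in wildtype MECs and 78.8, 190.2 and 282 in wildtype adipocytes. It is the most abundant member and also the one nearest the limit, since its level over adipocytes was 17.2 times. Members 31 and 9 were next, at 17.3 and 17.4 times. The genes just outside had 15.96, 15.6 and 15.2 times. By level, the lowest members had 4.53, 5.13 and 8.02 CPM, and the genes just outside had 3.997, 3.45 and 2.53 CPM.

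Members 16 and 21 behaved unlike the other members from one library to the next. Member 16 measured 124, 0.448 and 2.74 CPM in wildtype fibroblasts, so that 1 library brought it past the limit. Member 21 measured 53.4, 40.8 and 0.146 CPM. In the fibroblasts of the mutated lines neither exceeded 1.82 CPM. In MECs of the mutated lines member 16 reached 181 CPM in IF library 2 and 335 CPM in IFPS library 1, and member 21 reached 145 CPM in IF library 3. Both were also high in single wildtype pads, at 268 CPM each in pad 6, with 260.3 CPM of member 16 in pad 5 and at most 14.8 CPM of either in the other wildtype pads. For these members no fold change between fibroblast lines is given.

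**Figure D1:**
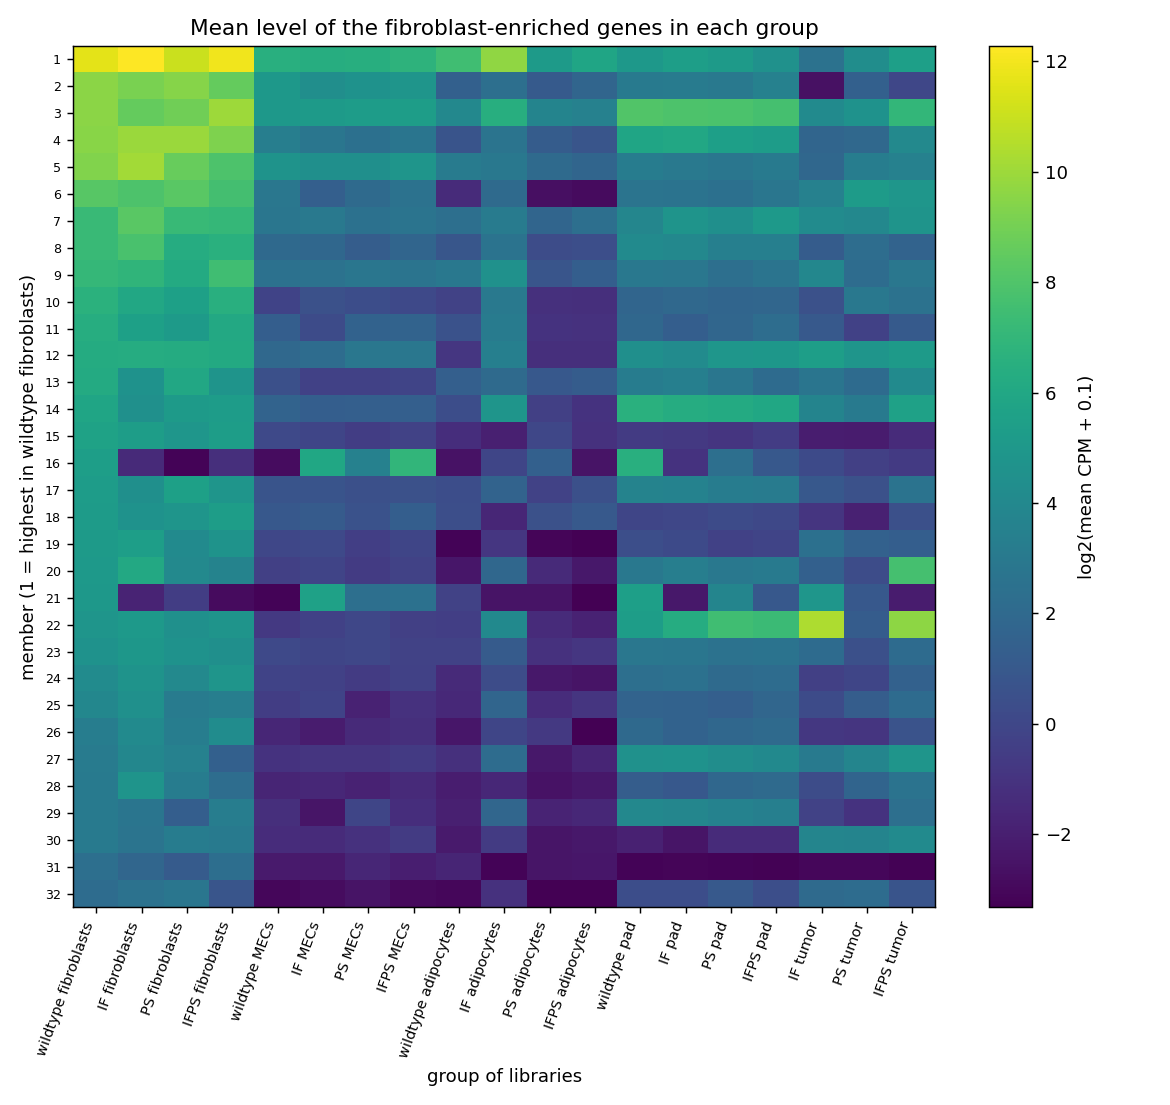
Mean level of each of the 32 members (rows, 1 highest in wildtype fibroblasts) in each of the 19 groups (columns), as log2 of mean CPM + 0.1 on a color scale. The 4 fibroblast columns are the brightest for most rows, the IF adipocyte column is brighter than the other adipocyte columns, and rows 16, 20, 21 and 22 carry means set by 1 or 2 libraries.

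The same ratios were then taken within each mutated line, whose libraries the choice of members did not use. Of the 32 members, 12 met the whole rule among IF cells, 23 among PS cells and 20 among IFPS cells. The ratio to adipocytes was kept by 28 members in PS, 28 in IFPS and 14 in IF. The ratio to MECs was kept by 26 members in IF, 23 in PS and 21 in IFPS. Applied anew in each line, the rule gave 44 genes for PS, 30 for IFPS and 25 for IF, which hold the same 23, 20 and 12 members.

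Against MECs of the same line, 30 of the 32 members were higher in fibroblasts in each of the 3 mutated lines. The quasi-likelihood test of edgeR called a difference in 32, 31 and 31 members for IF, PS and IFPS at a Benjamini-Hochberg adjusted p under 0.05. This test called 70.7%, 74.5% and 65.1% of all 15023 genes in the same comparisons, with 33.8%, 36% and 32.4% of all genes higher and 36.9%, 38.4% and 32.7% lower in fibroblasts. The median log2 fold change of the members was 5.66, 5.21 and 5.12, and over all genes it was -0.03, -0.03 and -0.01. Among the 30, the smallest was 1.89 ± 0.42 (SE, n = 3 against 3) for member 29 in PS and the largest 8.002 ± 0.19 for member 4 in PS. Member 4 measured 930.0, 1140.0 and 899.8 CPM in PS fibroblasts and 5.27, 6.28 and 4.49 in PS MECs, so the groups lay far apart. Members such as 28, 31 and 32 had at most 0.323, 0.323 and 0.129 CPM in any MEC library of these lines. They passed the low-count filter through the fibroblast libraries, so the filter favored the direction of their calls. The 2 exceptions to the 30 were members 16 and 21. Member 16 was lower in fibroblasts than in MECs in all 3 lines, and member 21 passed the threshold in IF only. Both IF calls rest on single libraries: without IF MEC library 2 the adjusted p (edgeR) of member 16 in IF was 0.411, and without IF MEC library 3 the log2 difference of member 21 turned to 0.13. In PS, member 16 lost its call in 4 of the 6 fits that left out 1 library, and in IFPS it kept the call in all 6.

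Between the mutated lines, 26 of the 32 members differed in at least 1 pair of fibroblast lines, where 48.4% of all genes did so. PS against IF gave 7 calls, 1 higher and 6 lower, where 4.78% of all 13879 genes were called (2.31% higher, 2.47% lower). IFPS against IF gave 14 calls, 3 higher and 11 lower, where 31.4% of genes were called (15.7% higher, 15.7% lower). IFPS against PS gave 17 calls, 9 higher and 8 lower, where 40.5% of genes were called (20.4% higher, 20.1% lower). The median log2 fold change of the members was -0.42, -0.31 and 0.01 in these comparisons, beside -0.0023, -0.011 and 0.0036 over all genes. No member passed in all 3 pairs, and members 12, 15, 16, 21, 22 and 30 passed in none. Shares of all genes that passed in more than 1 pair are not given here. Member patterns over more than 1 pair, here and below, can therefore not be set against them. The pairs share libraries, so their counts are not independent of one another.

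Among the mutated lines, members 7, 8, 19 and 25 were highest in IF fibroblasts, each called lower in both PS and IFPS. Member 7 measured 259.8, 287 and 391 CPM in IF, 130.02, 159 and 154 in PS, 126, 128 and 153 in IFPS and 196, 140.4 and 119 in wildtype fibroblasts. All 3 IF libraries lay above every other fibroblast library. The log2 fold change was -1.04 ± 0.20 (SE) for PS against IF and -1.30 ± 0.20 for IFPS against IF, with adjusted p = 0.0175 and 0.00136 in edgeR. Member 25 had 15.97, 29.3 and 22.1 CPM in IF, 8.88, 10.5 and 7.43 in PS and 9.78, 9.75 and 10.3 in IFPS, with no overlap of IF with PS or IFPS. For members 8, 19 and 25 IF overlapped wildtype, which ran to 214.9, 39.49 and 17.49 CPM. The lowest IF library of member 19 had 36.01 CPM. Member 8, at 167, 199 and 309.9 CPM in IF and 70.5, 85.6 and 84.5 in PS, stood at an adjusted p of 0.0498 (edgeR). It passed in none of the 6 fits that left out 1 library of these lines, where the adjusted p of edgeR ran from 0.0541 to 0.152.

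Lowest in PS fibroblasts were members 1 and 29. Member 1 measured 5152, 4266 and 5509 CPM in IF, 1979, 2217 and 1987 in PS and 4244, 2997 and 4837 in IFPS. Every PS library lay below every other fibroblast library, wildtype included. Its log2 fold change was -1.23 ± 0.20 (SE) for PS against IF and 0.84 ± 0.19 for IFPS against PS (adjusted p = 0.00888 and 0.00599, edgeR). Member 29, far less abundant, had 2.69, 2.28 and 2.17 CPM in PS and 8.20, 10.9 and 10.1 in IFPS, a log2 fold change of 1.91 ± 0.25 for IFPS against PS (adjusted p = 0.000351, edgeR). In IF it measured 4.75, 9.13 and 5.49 CPM, and in wildtype 9.98, 8.37 and 6.43.

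IFPS fibroblasts were set apart from both other mutated lines by members 4, 23, 27 and 32, which were lower, and by member 3, which was higher. Member 27 measured 2.16, 3.66 and 2.08 CPM in IFPS, 12.03, 13.1 and 19.7 in IF and 12.3, 14.7 and 7.64 in PS. Member 32 measured 1.19, 2.41 and 1.37 CPM in IFPS, 4.37, 6.26 and 7.09 in IF and 6.10, 6.97 and 7.32 in PS. In neither member did an IFPS library reach the lowest IF or PS library. The log2 fold changes against PS were -2.25 ± 0.49 and -2.15 ± 0.37 (SE), with adjusted p = 0.00405 and 0.00127 in edgeR. Member 3 went the other way, at 1161, 922 and 1036 CPM in IFPS against 458, 402 and 275 in IF and 547, 455 and 454 in PS. That is a log2 fold change of 1.37 ± 0.26 against IF and 0.97 ± 0.26 against PS (adjusted p = 0.00385 and 0.0129, edgeR). In wildtype fibroblasts member 3 ranged widely, at 437, 749 and 1068 CPM.

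The only member called higher in PS than in IF was member 17. It measured 50.2, 45.5 and 43.4 CPM in PS, 24.3, 20.999 and 20.6 in IF and 24.8, 29.5 and 29.02 in IFPS. In wildtype it ran from 33.8 to 42.5 CPM, above every IF library. Its replicates were close together and its log2 fold change was 1.12 ± 0.10 (SE, adjusted p = 0.000776, edgeR). Member 5 varied widely between replicates. It measured 1088, 514 and 292 CPM in wildtype, 663, 891 and 1726 in IF, 388, 359 and 445 in PS and 160.4, 327 and 234 in IFPS. It passed for IFPS against IF at -2.28 ± 0.48 (adjusted p = 0.00596, edgeR). Members 20 and 28 had the largest log2 fold changes of that pair together with member 27, at -2.57, -2.59 and -2.58. Member 20 lost its call when any 1 of 5 of the 6 libraries was left out, with adjusted p up to 0.135.

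IFPS against PS held the largest number of calls. Members 9, 10, 11, 24, 26 and 31 were higher in IFPS than in PS along with 1, 3 and 29. Member 9 measured 188, 205 and 152 CPM in IFPS and 88.5, 58.7 and 76.1 in PS, a log2 fold change of 1.16 ± 0.21 (SE, adjusted p = 0.00154, edgeR). Member 31, the least abundant of the group, had 4.27, 6.35 and 4.23 CPM in IFPS and 2.86, 1.39 and 2.01 in PS. Members 2, 6 and 13 were lower in IFPS than in PS, and of these member 13 differed most. It measured 17.4, 45.9 and 16.1 CPM in IFPS and 87.3, 51.3 and 60.9 in PS (-1.46 ± 0.41, SE), while IF, at 23.9, 28.2 and 22.1 CPM, lay near IFPS. In wildtype it ran from 49.1 to 112 CPM. Calls of members 2, 10, 11, 13, 23 and 31 were lost in at least 2 of the fits that left out 1 library. At the other end, member 12 passed in no pair, at 79.9, 102 and 58.3 CPM in IF, 72.4, 74.3 and 86.8 in PS and 74.03, 74.5 and 69.01 in IFPS.

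**Figure D2:**
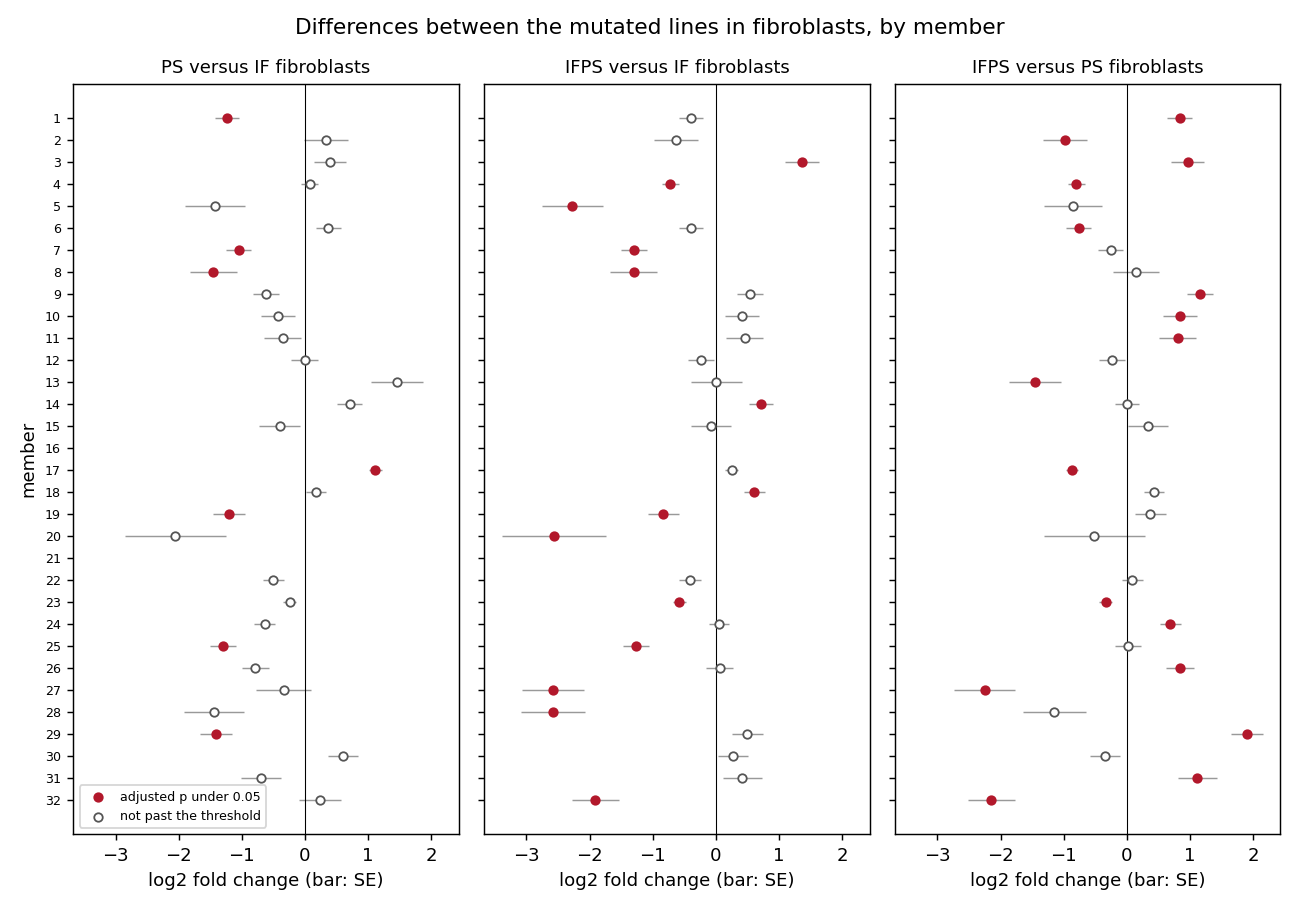
Log2 fold change (horizontal axis, bar: SE) of each member (vertical axis) between the mutated lines in fibroblasts, 3 libraries per line. Filled points passed an adjusted p of 0.05 in edgeR: 7 for PS against IF, 14 for IFPS against IF and 17 for IFPS against PS. Members 16 and 21 are not drawn.

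Leaving out 1 fibroblast library at a time left 3 to 6 calls for PS against IF, with 3 without PS library 2 and 4 without PS library 3 or IF library 3. The other pairs gave 11 to 13 and 12 to 15 calls. Members called in every such fit numbered 3, 9 and 11. The epithelial-enriched sum was 707 to 1466 CPM in IFPS fibroblasts, 347 to 631 in PS and 526 to 654 in IF. Its part in the differences was not tested. Against wildtype, where the choice of members bears on the values, the median log2 difference was -0.47 for PS, -0.35 for IFPS and -0.05 for IF, given without a test.

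In adipocytes the members were far higher in IF than in the other mutated lines. Their summed level was 1083, 1074 and 1102 CPM in the 3 IF libraries, 69.7 to 83.0 in PS, 82.2 to 109 in IFPS and 125 to 353 in wildtype. Of the 32 members, 26 had enough counts to be tested, and 6 of these (members 6, 16, 20, 24, 27 and 29) passed the low-count filter only through the IF libraries. Among the other 20, 16 were higher and 2 lower in IF than in PS, and 16 were higher and 1 lower in IF than in IFPS. Of the 6, 5 were higher in each comparison, a direction that the filter favors. Over all 14304 genes tested, 52.7% and 53% were called in these comparisons, 27.9% and 28.3% in the higher and 24.8% and 24.6% in the lower direction. The median log2 fold change of the 20 members was 2.46 and 2.61, beside -0.0068 and -0.0048 over all genes. The 26 exclude members 19, 21, 28, 30, 31 and 32, which had too few counts in adipocytes. As in every bulk comparison here, more cells of a type and more RNA per cell cannot be told apart.

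Member 1 carried most of this sum. It measured 730.1, 933 and 844 CPM in IF adipocytes, 39.98, 40.5 and 27.7 in PS and 57.5, 69.8 and 47.03 in IFPS, with 78.8, 190.2 and 282 in wildtype. The IF libraries lay above all others. Its log2 fold change was 4.53 ± 0.40 (SE) against PS and 3.89 ± 0.38 against IFPS, with adjusted p = 2.42e-05 and 4.92e-05 in edgeR. Member 14 had 38.4, 13.3 and 31.2 CPM in IF, 0.403, 0.739 and 0.849 in PS and 0.241, 0.519 and 0.418 in IFPS, which is 5.37 ± 0.45 and 6.13 ± 0.47 on the log2 scale. Member 27 was at 4.23, 3.82 and 5.47 CPM in IF and at or below 0.290 CPM in every PS and IFPS library.

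Members 15 and 18 moved in the opposite direction. Member 18 had 0.311, 0.280 and 0.0655 CPM in IF, 1.38, 0.533 and 2.12 in PS and 2.37, 1.38 and 2.09 in IFPS. It was lower in IF than in both at -2.63 ± 0.62 and -3.13 ± 0.62 (SE, adjusted p = 0.00516 and 0.00186, edgeR). Member 26 was not counted at all in the 3 IFPS libraries and measured 1.20, 0.140 and 1.21 CPM in IF and 0.403, 0.656 and 0.424 in PS. Against a floor of 3 counts over the IFPS group, its level in IF was higher by at least 4.66 on the log2 scale. Between IFPS and PS adipocytes edgeR called 0 of the 26 members and 0.028% of all genes, with 4 members and 5.82% of all genes at an unadjusted p under 0.05. DESeq2 called 2 members.

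Other gene sets moved with the members in IF adipocytes. The epithelial-enriched sum was 6001, 769 and 5669 CPM there, against 140.2 to 173 in PS and IFPS, and the sum of pad genes was 1978, 743 and 3193 CPM against 111 to 236. The members' sum was 1074 CPM in IF library 2, of which member 1 made up 933. Without member 1 the sum was 353, 141 and 258 CPM in the 3 IF libraries, so that it was lowest in library 2, as were both other sets. It was 33.9 to 42.4 CPM in PS and IFPS and 46.1 to 71.0 in wildtype. The part of the other sets in the members' levels was not tested. With library 2 as the only IF library, the IF group has no spread of its own, so only sizes are given. Against PS the log2 fold change was then 4.74 for member 1, 4.40 for member 14 and 2.65 for member 22. Against IFPS these were 4.11, 5.16 and 3.36. Members 15 and 18 stayed lower than in PS, at -1.60 and -2.19. Member 22 measured 26.4, 1.75 and 22.4 CPM in the 3 IF libraries.

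**Figure D3:**
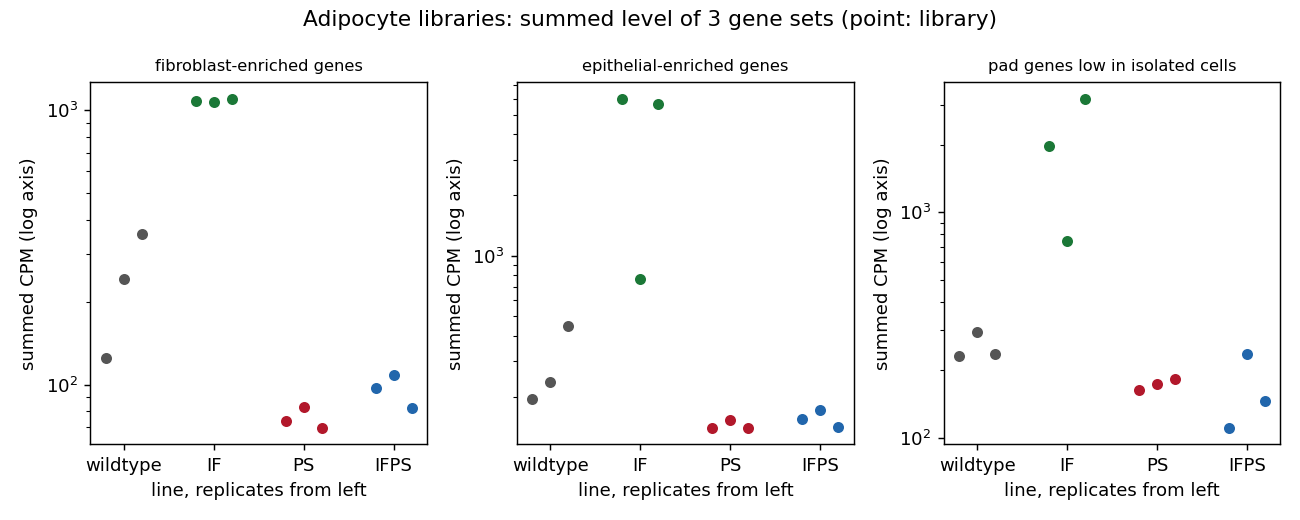
Summed CPM (log axis) of the 32 fibroblast-enriched genes, the 308 epithelial-enriched genes and the 218 pad genes in each of the 12 adipocyte libraries, 1 point per library. The members' sum is 1074 to 1102 CPM in the 3 IF libraries and at most 353 CPM in all others, and the other sums are lower in the middle IF library. Without member 1 the members' sum is 141 CPM in that library and 353 and 258 CPM in the other IF libraries.

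In whole mammary pads the members were present at a fraction of their fibroblast level. The median over the 32 members of the ratio of pad to fibroblast mean CPM was 0.18 in IFPS, 0.173 in PS, 0.11 in IF and 0.167 in wildtype. Member 3 had the highest mean of all members in the pads of every line, and ran from 182 to 407 with a median of 259 CPM in wildtype and from 133 to 333 with a median of 189.8 in IFPS. Members 14, 27 and 29 had a higher mean in pads than in fibroblasts in all 4 lines. The means of members 16 and 22 were also higher there but were set by 1 or 2 pads in some lines: in IFPS pads member 16 had a median of 0.0745 CPM and a highest value of 10.8. Member 14 had from 52.6 to 134 with a median of 101 CPM in wildtype pads and 69.1, 50.4 and 52.1 in wildtype fibroblasts. At the other end, member 31 was at or near 0 in every pad, with at most 0.0434 CPM, and member 15 ran from 0.398 to 0.626 with a median of 0.573 CPM in wildtype pads against 67.8, 42.997 and 38.6 in wildtype fibroblasts. The pads also held 5291 to 23024 CPM of epithelial-enriched and 26106 to 77594 CPM of adipocyte-enriched genes.

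No member passed the test between the pads of a mutated line and wildtype pads. Of 31 members tested, edgeR called 0 for each of IF, PS and IFPS, and it called 0%, 0.0061% and 0% of all 16384 genes. DESeq2 also called 0 members in each. At an unadjusted p under 0.05 there were 1, 6 and 10 members, and 1.87%, 10.2% and 7.92% of all genes. The smallest adjusted p of a member was 0.362 in PS, 0.515 in IFPS and 1 in IF (edgeR). Member 13 had that value in IFPS. It ran from 1.95 to 5.32 with a median of 4.56 CPM there and from 4.18 to 12.997 with a median of 9.98 in wildtype pads, a log2 difference of -1.12 ± 0.31 (SE, n = 6 against 6). Member 8, with the smallest p in PS, ran from 6.39 to 16.9 with a median of 10.4 CPM in PS and from 13.2 to 23.4 with a median of 16.3 in wildtype pads, -0.76 ± 0.26 on the log2 scale. In both cases the ranges overlapped. The members' median log2 difference for IF, PS and IFPS was 0.03, -0.32 and -0.29, beside -0.0085, -0.00025 and 0.0095 over all genes.

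Against the pads of their own line, tumors had lower and higher members. Most changes were decreases in IF and PS, and 2 members rose in all 3 lines. Of 31 members tested, 2 were higher and 9 lower in IF tumors (11 calls, where 23.3% of all 17227 genes were called). In PS tumors 3 were higher and 13 lower (16 calls, where 38.9% were called). The 13 include member 16, uneven between libraries. Its median was 0.792 CPM in PS pads, with a highest value of 27.4, and 0.636 CPM in PS tumors. In IFPS tumors 3 were higher and 2 lower (5 calls, where 27.9% were called). The IFPS count depends on the fit: DESeq2 gave 10 calls, a fit of only IFPS tumors and pads gave 3, and pads of title numbers 1 to 12 left 1, member 30. The shares of all genes called in these other fits are not given here. The lower direction held 13.2%, 20.8% and 12.3% of all genes, and the higher direction 10.1%, 18.1% and 15.6%. The members' median log2 fold change for IF, PS and IFPS was -1.15, -1.73 and 0.13, against 0.05, 0.01 and 0.09 over all genes. Members 1, 3, 4, 17, 24, 26 and 29 were lower in both IF and PS tumors, members 19 and 30 were higher in all 3 kinds, and 12 tested members passed in none. The shares of all genes that meet these joint conditions are not given here, so these counts cannot be set against them. Member 31 had too few counts.

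The sums of other gene sets moved between the same groups. The adipocyte-enriched sum was 26106 to 77594 CPM in the pads of the mutated lines and 4611 to 16053 in the tumors apart from IFPS tumor 6. The epithelial-enriched sum was 7858 to 23024 CPM in these pads and 29386 to 86553 in tumors apart from IFPS tumors 6, 8 and 9. Their part in the members' changes was not tested.

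Member 30 (ENSRNOG00000059837) rose in the tumors of all 3 lines. In pads it was close to 0, at 0.131, 0.0692 and 0.0427 CPM in IF, from 0 to 0.478 with a median of 0.301 in PS and from 0.0692 to 0.600 with a median of 0.242 in IFPS. In tumors it measured 3.15, 0.709, 15.7, 34.3 and 15.7 CPM in IF, from 1.62 to 33.4 with a median of 7.44 in PS and from 0.648 to 38.6 with a median of 16.9 in IFPS. Every tumor lay above every pad of its line. The log2 fold changes were 7.18 ± 1.45, 5.36 ± 0.91 and 5.85 ± 0.93 (SE), with adjusted p = 0.0013, 6.61e-05 and 5.36e-05 in edgeR. It passed in every fit that left out 1 library. The IF pads held only 4, 2 and 1 counts of it, so the size of that fold change is loosely determined. Its level in fibroblasts was 4.80, 8.07 and 11.2 CPM in wildtype, and its mean in tumors was above that in fibroblasts of the same line by 2.21 times in IF, 1.44 in PS and 2.21 in IFPS.

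Member 19 (ENSRNOG00000002653) also rose in all 3 kinds of tumor, by less and with overlap. It measured 1.02, 0.657 and 1.49 CPM in IF pads and 13.4, 0.222, 6.79, 5.34 and 1.33 in IF tumors. In PS it ran from 0.456 to 0.999 with a median of 0.707 CPM in pads and from 0.942 to 5.02 with a median of 2.25 in tumors. In IFPS it ran from 0.374 to 1.17 with a median of 0.874 CPM in pads and from 0.409 to 4.37 with a median of 2.07 in tumors. The log2 fold changes were 2.20 ± 0.71, 1.70 ± 0.50 and 1.34 ± 0.49 (SE), with adjusted p = 0.0241, 0.00786 and 0.0382 in edgeR. The IF call was lost without IF tumor 1, IF pad 1 or IF pad 2 (adjusted p up to 0.0995). The IFPS call was lost without IFPS tumor 1 or 3 or without IFPS pad 1, 2, 3 or 4 (up to 0.0858). The PS call held in all such fits, and was lost with only the pads of title numbers 1 to 12 (adjusted p = 0.157, edgeR), as was the IFPS call (adjusted p = 0.0942).

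Member 26 (ENSRNOG00000018551) was lower in IF and PS tumors. It measured 2.89, 4.15 and 1.83 CPM in IF pads and 0.539, 0.0887, 0.523, 0.925 and 0.276 in IF tumors. PS pads ran from 2.62 to 6.61 with a median of 2.85 CPM and PS tumors from 0.196 to 0.788 with a median of 0.430. In both lines no tumor reached the lowest pad. The log2 fold changes were -2.78 ± 0.81 and -3.29 ± 0.60 (SE, adjusted p = 0.0148 and 0.000136, edgeR). The IF call was lost without IF pad 2 (adjusted p = 0.0729). In IFPS it ran from 2.04 to 6.85 with a median of 3.995 CPM in pads and from 0.165 to 7.50 with a median of 0.678 in tumors, a log2 fold change of -1.42 ± 0.57 that missed the threshold (adjusted p = 0.0602, edgeR). The highest IFPS tumor was tumor 6.

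Member 1 (ENSRNOG00000014835), the most abundant in fibroblasts, fell in IF and PS tumors. In IF it measured 58.4, 41.2 and 31.3 CPM in pads and 5.26, 0.488, 5.61, 4.78 and 12.3 in tumors, with no overlap and a log2 fold change of -3.09 ± 0.58 (SE, adjusted p = 0.000766, edgeR). In PS it ran from 23.9 to 67.6 with a median of 29.3 CPM in pads and from 9.20 to 31.4 with a median of 18.4 in tumors. There it fell by 1.07 on the log2 scale (adjusted p = 0.0376, edgeR), a call lost without PS tumor 1, 3, 4, 6 or 8 or without PS pad 1, 2 or 3, with adjusted p up to 0.14. In IFPS it ran from 18.8 to 29.1 with a median of 23.9 CPM in pads and from 8.89 to 122 with a median of 31.95 in tumors, 0.72 ± 0.43 on the log2 scale, which did not pass.

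Members 3, 4 and 29 also fell in IF and PS tumors. Member 3, abundant in pads at from 153 to 295 with a median of 246 CPM in PS, ran from 9.52 to 69.1 with a median of 17.99 CPM in PS tumors. Its log2 fold change was -3.44 ± 0.79 (SE) in PS and -3.75 ± 1.08 in IF. Member 4 had 48.7, 62.3 and 84.2 CPM in IF pads and 4.06, 4.83, 1.71, 2.36 and 3.70 in IF tumors, a log2 fold change of -4.31 ± 1.08 (adjusted p = 0.00588, edgeR). Member 29 went from 11.99, 11.1 and 19.1 CPM in IF pads to 1.78, 1.24, 0.238, 0.103 and 0.387 in IF tumors (-4.22 ± 1.36 on the log2 scale). That IF call was lost without IF tumor 3 or 4 or IF pad 3, with adjusted p up to 0.0684. In PS it fell by 5.13 on the log2 scale (adjusted p = 0.00036, edgeR) and held in all such fits.

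Other members passed in 1 or 2 lines. Member 2 measured 16.4, 0.173 and 10.5 CPM in IF pads, where pad 2 was near 0, and 0, 0, 0, 0.257 and 0.0552 in IF tumors. In IFPS it ran from 0.0692 to 20.3 with a median of 14.9 CPM in pads and from 0 to 3.53 with a median of 0.487 in tumors, and it was called lower in both lines (adjusted p = 0.00655 and 0.0111, edgeR). With only the pads of title numbers 1 to 12 the IFPS call of member 2 was lost (adjusted p = 0.0648, edgeR). Member 6 rose in PS, from a pad range from 3.70 to 6.46 with a median of 5.57 CPM to a tumor range from 1.71 to 157 with a median of 28.5 CPM, with overlap (2.63 ± 0.77, SE, adjusted p = 0.00803, edgeR). In IFPS the same member reached 1.89 ± 0.74 and missed the threshold (adjusted p = 0.054, edgeR). With all tumors, members 11, 14, 16, 18, 22 and 23 were called lower in PS alone. Members 11, 14, 18 and 23 stood there at -2.51, -3.39, -2.85 and -2.35 on the log2 scale. In IF they stood at -0.48, -2.64, -1.15 and -0.48 without passing, and no difference between lines passed for them in the test of the tumor effect. Without IFPS tumors 6, 8 and 9, members 11, 14 and 18 were also lower in IFPS, at -1.99, -2.94 and -3.25 on the log2 scale (adjusted p = 0.00142, 0.00209 and 4.96e-06, edgeR). Member 12 passed in none of the 3 lines and ran from 23.9 to 41.8 with a median of 26.8 CPM in PS pads and from 10.4 to 52.8 with a median of 26.4 in PS tumors, a log2 difference of -0.32 ± 0.49 (SE).

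**Figure D4:**
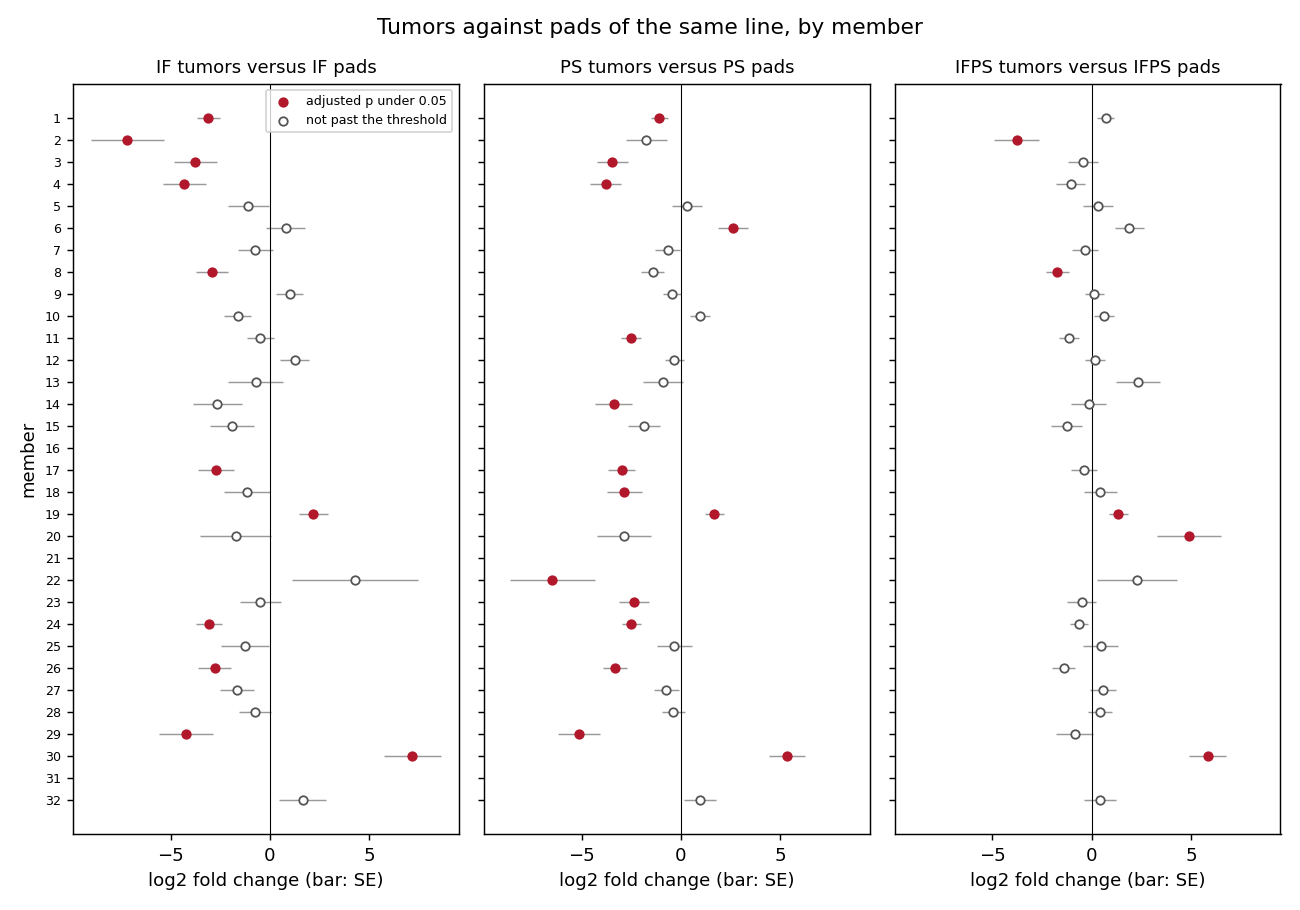
Log2 fold change (horizontal axis, bar: SE) of each member (vertical axis) in tumors against pads of the same line. Filled points passed an adjusted p of 0.05 in edgeR; members 19 and 30 are filled and positive in all 3 panels. Members 16 and 21 are not drawn and member 31 was not tested.

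The low count of calls in IFPS came with 3 tumors that stood apart. Without IFPS tumors 6, 8 and 9, whose epithelial-enriched sums were lowest, 16 of 31 tested members passed in IFPS, 4 higher and 12 lower. In that fit 49.6% of all genes were called, 24.6% higher and 25% lower. The count of 16 over both directions was near the share over all genes, but the split was not. Lower calls outnumbered higher ones among the members, 12 against 4, while the 2 directions were nearly even over all genes. The median over the members then fell to -0.81 on the log2 scale, beside 0.04 over all genes. The 12 lower members were 2, 3, 4, 8, 11, 14, 17, 18, 21, 24, 26 and 29, and the 4 higher were 1, 6, 19 and 30. Leaving out tumor 6 alone gave 8 calls, and leaving out tumor 9 alone gave 9. These 3 tumors were chosen after their sums were seen.

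Member 20 rested on 1 of these tumors. It measured 1.53, 3.49, 3.77, 2.78, 6.74, 4.40, 0.533, 0.116 and 1790.1 CPM in the 9 IFPS tumors and ran from 5.95 to 11.3 with a median of 8.49 CPM in IFPS pads. The call of 4.90 ± 1.61 on the log2 scale (SE, adjusted p = 0.0224, edgeR) turned to -1.60 without tumor 9 and to -1.61 without tumors 6, 8 and 9. Tumor 9 was also the highest of all 23 tumors for 6 members, tumor 6 for 5 and IFPS tumor 7 for 4. Members 3 and 14 measured 539 and 318 CPM in tumor 9.

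Member 22 reached the highest tissue levels of all, each in 1 library. It measured 0.0414, 6580.4, 2.71, 28.2 and 0.331 CPM in IF tumors and 0.475, 32.2, 0.406, 0.114, 6982, 15.1, 88.1, 0.0386 and 0 in IFPS tumors, where IF tumor 2 and IFPS tumor 5 stood alone. In pads it was also uneven, from 11.03 to 808 with a median of 48.8 CPM in PS and from 31.98 to 587 with a median of 54.1 in IFPS. In fibroblasts it was even, from 21.2 to 40.0 CPM over all 12 libraries. It passed only in PS, where tumors ran from 0.0490 to 10.7 with a median of 0.171 CPM, at -6.47 ± 2.15 (SE, adjusted p = 0.0174, edgeR). Without PS pad 3 that was -4.79 with an adjusted p of 0.0608.

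**Figure D5:**
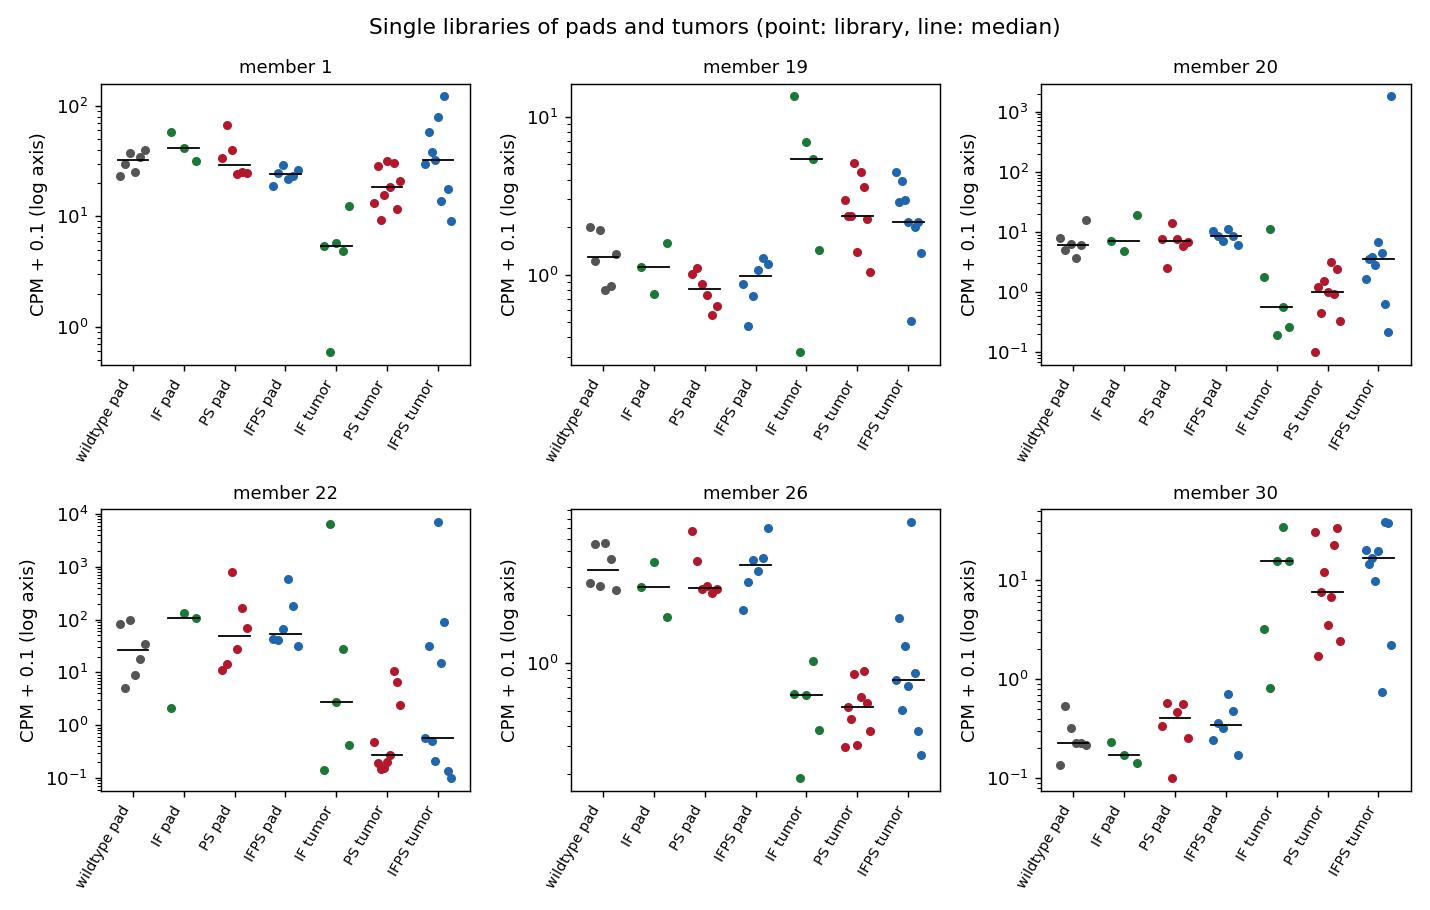
CPM + 0.1 (log axis) of members 1, 19, 20, 22, 26 and 30 in every pad and tumor library, 1 point per library, with a line at each group's median. Member 30 is above every pad of its line in all tumors, member 26 is lower in IF and PS tumors, and members 20 and 22 have single tumors at 1790 CPM or more.

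Whether the tumor effect differed between lines was tested in the same fit, a comparison added after the data were seen. The effect in IFPS minus that in IF differed for 1 of 31 members, member 1, at 3.81 ± 0.72 on the log2 scale (SE, adjusted p = 0.011, edgeR), where 0.464% of all genes were called. The call was lost without IF pad 2 (adjusted p = 0.0741), in a fit of only the groups compared (0.0785) and with pads of title numbers 1 to 12 (0.104). For IFPS minus PS, 0 members passed and 12 had an unadjusted p under 0.05, where 0% of genes were called and 13.7% had such a p. For IF minus PS, 0 passed and 6 had an unadjusted p under 0.05, where 0.36% were called and 9.6% had such a p. DESeq2 called 0, 2 and 1 members for IFPS minus PS, IFPS minus IF and IF minus PS. The larger number of calls in PS than in IFPS is therefore not shown to be a difference between the lines.

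Among the tumors themselves the spread within a group was large beside the differences. Of 29 members tested, edgeR called 0 between IF and PS tumors (8 at an unadjusted p under 0.05, 5 by DESeq2), where 2.48% of all 15966 genes were called and 16.9% had an unadjusted p under 0.05. It called 0 between IFPS and PS tumors (14 at an unadjusted p under 0.05, 6 by DESeq2), where 0% of genes were called and 22.2% had such an unadjusted p. Between IFPS and IF tumors it called 2, where 4.25% were called. Member 1 was higher in IFPS tumors by 2.89 ± 0.59 on the log2 scale (SE, adjusted p = 0.00757), and member 21 was lower. Member 21 measured 0.124, 18.4, 0.0950, 70.1 and 55.1 CPM in IF tumors and at most 0.823 in IFPS tumors. In IF, 3 tumors were high and 2 were near 0. In a fit of only these 2 groups neither passed.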

How the data were processed

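The 80 rat RNA libraries, made with an mRNA kit and sequenced paired-end per the labels' protocols, were deposited as 1 table of raw counts, whole numbers per Ensembl gene identifier. Per the submitters' processing notes, the tools were Trim Galore and STAR 2.5.2b with genome build Rnor 6.0. The counting tool and its use of strand are not given in the sources used here, so genes that share reads with a copy or an overlapping or antisense gene are uncertain. Groups came from the labels, and columns were matched by title. No pair of libraries of 1 group agreed within sampling noise (166 pairs, smallest chi-square per degree of freedom 8.7).

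The members, the lists and the tests were chosen with earlier results of these data known. Of the identifiers, 0 matched a symbol in the reference tables at hand, so marker and role lists were not analysed here. In their place, the mirrored sets took genes with a mean of at least 4 CPM in wildtype MECs or adipocytes and the same ratio of 16 to the other cell types, or in pads to all 3 isolated cell types. Named identifiers were the 2 members that rose and the 2 that fell with the smallest p in tumors against pads. Members 2, 20, 22 and others described by their values were chosen after these were seen.

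Levels are CPM from the deposited counts. For differences, edgeR 4.0.16 (R 4.3.3) was run on the counts with its quasi-likelihood test. TMM factors scaled the libraries, filterByExpr removed genes of low count, and p-values were adjusted by Benjamini-Hochberg over all genes of a fit, at a threshold of 0.05. The SE of a log2 fold change is its size divided by the square root of the F statistic. Each tissue had 1 fit over its lines. Tumors and pads of the 3 mutated lines shared a fit, as did fibroblasts and MECs of these lines. In the fit of pads alone, a covariate marked whether a pad's title number was at most 12. The shared fit of tumors and pads had no such covariate. IF pads all had numbers of at most 12, while PS and IFPS pads had numbers on both sides. The scripts were tested on simulated data. Over the range of total counts, 1 count was worth 0.0268 to 0.0577 CPM.

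Same-numbered fibroblast and MEC libraries of the mutated lines deviated together: the correlation over 13307 genes was 0.126 to 0.318 in all 9 pairs, and each library correlated best with its own number. The numbers were therefore taken to pair these libraries, and a fit with the number as a block was an alternative. Other alternatives were DESeq2 1.42.0, RLE size factors, no low-count filter, only the groups compared, pads of 1 set of title numbers or without the covariate, and leaving out each library. Member counts under these alternatives are given without the share of all genes called in the same fit. They therefore do not tell whether a move was particular to the members.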

Additional observations from a re-analysis of the deposited data

Results flagged for a closer look

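In groups of 4 to 10 libraries, a library was singled out when its gap to the nearest other was large for the range of the group. The limit was Dixon's critical value, which chance exceeds in about 1 in 20 groups of normally distributed values. Of 192 pairs of a member and a pad or tumor group, 51 (26.6%) held such a library. Whether CPM are so distributed was not tested, and the members share libraries. This share can therefore not be set against 1 in 20.

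Among the members described by library, member 22 stood out most often. It measured 6580 CPM in IF tumor 2, 6982 CPM in IFPS tumor 5, 808 CPM in PS pad 3 and 587 CPM in IFPS pad 4. The same libraries stood out in the members' summed level, at 6832 CPM in IF tumor 2, 7392 CPM in IFPS tumor 5, 1376 CPM in PS pad 3 and 1152 CPM in IFPS pad 4. IF tumor 2 also had 219608 CPM of the pad genes low in isolated cells, the highest sum of all tumors. Its mean log2 level over these genes was 2.27, below the 3.97 of PS tumor 3. The part of this set in the level of member 22 was not tested.

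Member 20 measured 1790 CPM in IFPS tumor 9, 10.9 CPM in IF tumor 2 and 15.99 CPM in wildtype pad 6. Member 2 measured 14.3 CPM in PS tumor 3, 3.53 CPM in IFPS tumor 2 and 0.257 CPM in IF tumor 4. Member 26 measured 7.50 CPM in IFPS tumor 6, and member 1 measured 67.6 CPM in PS pad 2, each the highest of its group.

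For member 1, tumor minus pad was higher in IFPS than in IF by 3.81 on the log2 scale in edgeR (adjusted p = 0.011), and the call was lost without IF pad 2 (0.0741), in a fit of only the groups compared (0.0785) and with pads of title numbers 1 to 12 (0.104).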

How the results depend on the processing

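Counts of members past the threshold depended on some settings. With DESeq2 they were 12 for PS against IF fibroblasts, 2 for IFPS against PS adipocytes, 10 for IFPS tumors against pads, 2 and 1 for the tumor effect of IFPS minus IF and IF minus PS, and 5, 6 and 6 among tumors (IF against PS, IFPS against PS, IFPS against IF). Fitting only the groups compared gave 3 for IFPS tumors against pads, 0 for the effect of IFPS minus IF, and 1 and 0 for IF against PS and IFPS against IF tumors. Pads of title numbers 1 to 12 gave 1 for IFPS tumors against pads and 0 for the effect of IFPS minus IF. Without IFPS tumors 6, 8 and 9 it was 16. Except for the fit without these tumors, the shares of all genes called in these fits are not given here. The cause of these moves was not tested.

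Leaving out 1 library gave 3 to 6 calls for PS against IF fibroblasts, 4 to 9 for IFPS tumors against pads, 0 to 1 for the effect of IFPS minus IF, 0 to 1 for IF against PS tumors and 0 to 4 for IFPS against PS tumors. The log2 fold change of member 20 in IFPS tumors reached 5.11 without 1 library but turned to -1.60 without tumor 9 and to -1.61 without tumors 6, 8 and 9, and that of member 21 in IF fibroblasts against MECs ranged from -8.66 to 0.13, the latter without IF MEC library 3. The replicate block on the paired title numbers gave 32 calls in each line for fibroblasts against MECs, where 32, 31 and 31 passed without it, and ended no call. Of 2536 refits of single called members, 2398 stayed past the threshold in the same direction, 135 lost the call and 3 reversed. For tumors against pads, not all calls held in every fit that left out 1 library. Those that did were 6 of 11 in IF, 13 of 16 in PS and 2 of 5 in IFPS. Depth limits members near 0 CPM, such as members 30 and 31 in pads.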
